A study of Homo sapiens with 23 samples.

Results

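The 10 genes described here encode plasma membrane amino acid transporters and were followed through the 8 RNA-seq libraries of a study of MLL4 and BAP1 in HCT116 cells, a human colorectal cancer line. They are, of 28105 genes with a symbol in the deposited tables, SLC1A3, SLC1A4, SLC1A5, SLC3A2, SLC7A1, SLC7A5, SLC7A11, SLC38A1, SLC38A2 and SLC6A9. SLC1A3 was selected on its CPM, for being lower in each knockout than in its own unedited group. That used its values in all 4 groups, and they are given as a description with no test. The other 9 genes were listed by function, with earlier results of these data known, and were tested. The wider gene lists used below were chosen in the same way. Their counts beside the share of all tested genes therefore describe these lists and are not independent support. Each gene is represented by the RefSeq transcript row with the highest mean read count.

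The libraries form 4 groups of 2, and all were poly(A)-selected RNA of HCT116 cells grown in McCoy's 5A medium with serum. WT is labelled wild type, and MLL4 KO lacks MLL4 (gene KMT2D), which methylates lysine 4 of histone H3 at enhancers. Control is also labelled wild type and stands beside BAP1 KO, which lacks BAP1, the enzyme that removes ubiquitin from histone H2A. The titles do not say how control differs from WT. The names of the deposited tables for control and BAP1 KO carry the term osTir1, which the labels do not explain. The labels also do not say how the genes were knocked out, or whether the 2 libraries of a group came from separate clones or cultures, so the p-values measure only the spread between these libraries. The 15 ChIP-seq samples of the series were not analysed here.

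Depth was 24.8 to 42.2 M reads assigned to genes per library. The spread between replicates was unequal: the median absolute log2 difference between the 2 libraries of a group was 0.289 in WT, 0.222 in MLL4 KO, 0.189 in BAP1 KO and 0.0958 in control. KMT2D was at 309 and 371 CPM (reads per 1e+06 reads after scaling between libraries) in WT and at 280 and 406 CPM in MLL4 KO, with an adjusted p of 0.970. BAP1 transcript in control was at 56.7 and 62.1 CPM, beside 67.4 and 57.4 CPM in BAP1 KO, with an adjusted p of 0.746. The transcript levels of the targeted genes therefore did not check the labels. The epithelial markers EPCAM, CDH1, KRT8, KRT18, KRT19, CLDN3, CLDN4 and CLDN7 were all read in these libraries. Of the markers of other cell types, DCN, LUM and CD3E had no read. The fibroblast marker COL1A1 was at 25.5 to 54.9 CPM, beside 4.31 to 30.2 CPM for CLDN3. The rest had reads and stayed at or below 2.39 CPM in every library, with GFAP the highest.

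Amino acid transporters of the solute carrier (SLC) families carry nutrients that the cell cannot make, or cannot make fast enough, across the plasma membrane. SLC1 members couple uptake to sodium. SLC1A3 (EAAT1, GLAST) takes up glutamate and aspartate and is best known from astrocytes, while SLC1A4 (ASCT1) and SLC1A5 (ASCT2) exchange neutral amino acids such as serine and glutamine. SLC3A2 (CD98 heavy chain, 4F2hc) is the chaperone subunit that brings SLC7 light chains to the surface, among them SLC7A5 (LAT1), an exchanger of leucine and other large neutral amino acids, and SLC7A11 (xCT), which exports glutamate and imports cystine. SLC38A1 (SNAT1) and SLC38A2 (SNAT2) are sodium-coupled glutamine transporters, SLC7A1 (CAT1) carries arginine and lysine, and SLC6A9 (GLYT1) carries glycine. Several of these genes are known targets of ATF4, the transcription factor made when amino acids are scarce.

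Promoter sequences are shown for the 4 genes in which a search of the stretch just upstream of the gene start found a short motif of factors known in amino acid or redox control. The sequences are from RefSeq (GRCh38.p14), run 5′ to 3′ on the gene's strand, end at the base before the start, and have the matched letters in capitals. Of the 10 genes 9 had an entry, and SLC7A11 had none. Both strands were searched for TGATGNAA (core of the C/EBP-ATF response element), TGACNNNGC (core of the antioxidant response element) and CACGTG (E-box). These motifs were present in 3.14%, 10.9% and 6.34% of 35116 promoters of the same length.
SLC1A3: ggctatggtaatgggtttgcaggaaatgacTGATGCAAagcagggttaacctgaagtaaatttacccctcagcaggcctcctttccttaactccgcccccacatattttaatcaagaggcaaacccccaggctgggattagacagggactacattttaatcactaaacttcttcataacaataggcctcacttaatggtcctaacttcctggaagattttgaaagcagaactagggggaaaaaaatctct
SLC3A2: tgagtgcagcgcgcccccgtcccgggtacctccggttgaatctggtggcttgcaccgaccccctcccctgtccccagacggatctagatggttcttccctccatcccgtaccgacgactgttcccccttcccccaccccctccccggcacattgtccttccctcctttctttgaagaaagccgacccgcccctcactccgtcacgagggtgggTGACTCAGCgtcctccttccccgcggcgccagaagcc
SLC7A1: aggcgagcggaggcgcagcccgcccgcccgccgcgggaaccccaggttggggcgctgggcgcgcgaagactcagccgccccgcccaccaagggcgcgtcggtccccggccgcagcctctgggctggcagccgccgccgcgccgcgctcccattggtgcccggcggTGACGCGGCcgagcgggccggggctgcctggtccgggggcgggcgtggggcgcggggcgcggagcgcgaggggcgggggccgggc
SLC7A5: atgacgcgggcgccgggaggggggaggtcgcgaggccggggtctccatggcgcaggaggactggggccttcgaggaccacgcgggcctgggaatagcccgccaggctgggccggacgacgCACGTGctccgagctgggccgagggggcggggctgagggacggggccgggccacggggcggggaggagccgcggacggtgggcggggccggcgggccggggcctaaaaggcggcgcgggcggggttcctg
The SLC1A3 stretch is chr5:36596338-36596587 (plus strand) and holds TGATGCAA at -220 to -213 from the start. The SLC3A2 stretch is chr11:62881449-62881698 (plus strand), which lies within the annotated gene upstream of one of its starts, and holds TGACTCAGC at -37 to -29. The SLC7A1 stretch is chr13:29595689-29595938 (minus strand) and holds TGACGCGGC at -85 to -77. The SLC7A5 stretch is chr16:87869508-87869757 (minus strand) and holds CACGTG at -130 to -125. The response element core was found in 1 of the 9 promoters, that of SLC1A3, and in none of the other 8. A match is a run of letters and no evidence of binding, and no match says only that these letters are not in this window.

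SLC1A3, the glutamate transporter gene, was at 26.5 and 18.8 CPM in WT and at 2.12 and 2.38 in MLL4 KO. Its control level was 13.3 and 12.7 CPM, and the BAP1 KO libraries were at 0.255 and 0.356 CPM. WT had 684 and 602 reads, MLL4 KO 93 and 79, control 339 and 494, and BAP1 KO 8 and 10. The 4 groups did not overlap and stood in the order BAP1 KO, MLL4 KO, control, WT from low to high. The log2 fold change was -3.33 ± 0.23 (SE) in MLL4 KO against WT and -5.40 ± 0.34 in BAP1 KO against control. In bulk RNA, fewer cells with the transcript and less transcript per cell cannot be told apart.

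The low level in the knockouts was seen in each of the 5 transcript rows of SLC1A3, a gene at chr5:36596588-36688334 on the plus strand. Their log2 ratios of mean CPM ranged from -3.34 to -2.26 for MLL4 KO over WT and from -5.41 to -5.35 for BAP1 KO over control in 4 rows. The fifth row, a short transcript, was listed at 0 reads in both BAP1 KO libraries, against 36 and 68 in control. These rows share most of their reads and are not independent. Over the alternative settings the fitted change ranged from -3.56 to -3.07 in MLL4 KO and from -5.64 to -5.17 in BAP1 KO. The antisense gene SLC1A3-AS1 overlaps SLC1A3, and without a stated strand setting its reads cannot be told apart from those of SLC1A3.

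The unedited groups also stood apart for SLC1A3. Both control libraries lay below both WT libraries, and the log2 fold change of control against WT was -0.80 ± 0.20 (SE). Among the 10 genes SLC1A3 alone had a lower mean CPM in control than in WT.

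Other glutamate transporter genes of the SLC1 family were followed beside SLC1A3. SLC1A1 (EAAT3), named here after its values were seen, was at 12.5 and 8.09 CPM in WT, with 10.6 and 10.8 in MLL4 KO, 17.4 and 18.7 in control, and 20.7 and 14.2 in BAP1 KO. Its log2 fold change was 0.06 ± 0.24 in MLL4 KO against WT (SE, adjusted p = 0.882) and -0.04 ± 0.23 in BAP1 KO against control (adjusted p = 0.914). SLC1A2 (EAAT2, GLT-1) had 2 and 2 reads in WT, with 40 and 29 in MLL4 KO, 0 and 6 in control, and 6 and 4 in BAP1 KO. SLC1A2 rose in MLL4 KO (adjusted p = 0.0131), with an adjusted p of 0.0937 without WT replicate 2, and stayed below 1 CPM in every library. SLC1A6 and SLC1A7, also glutamate transporters, had at most 8 reads in any library and were not tested.

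**Figure D1:**
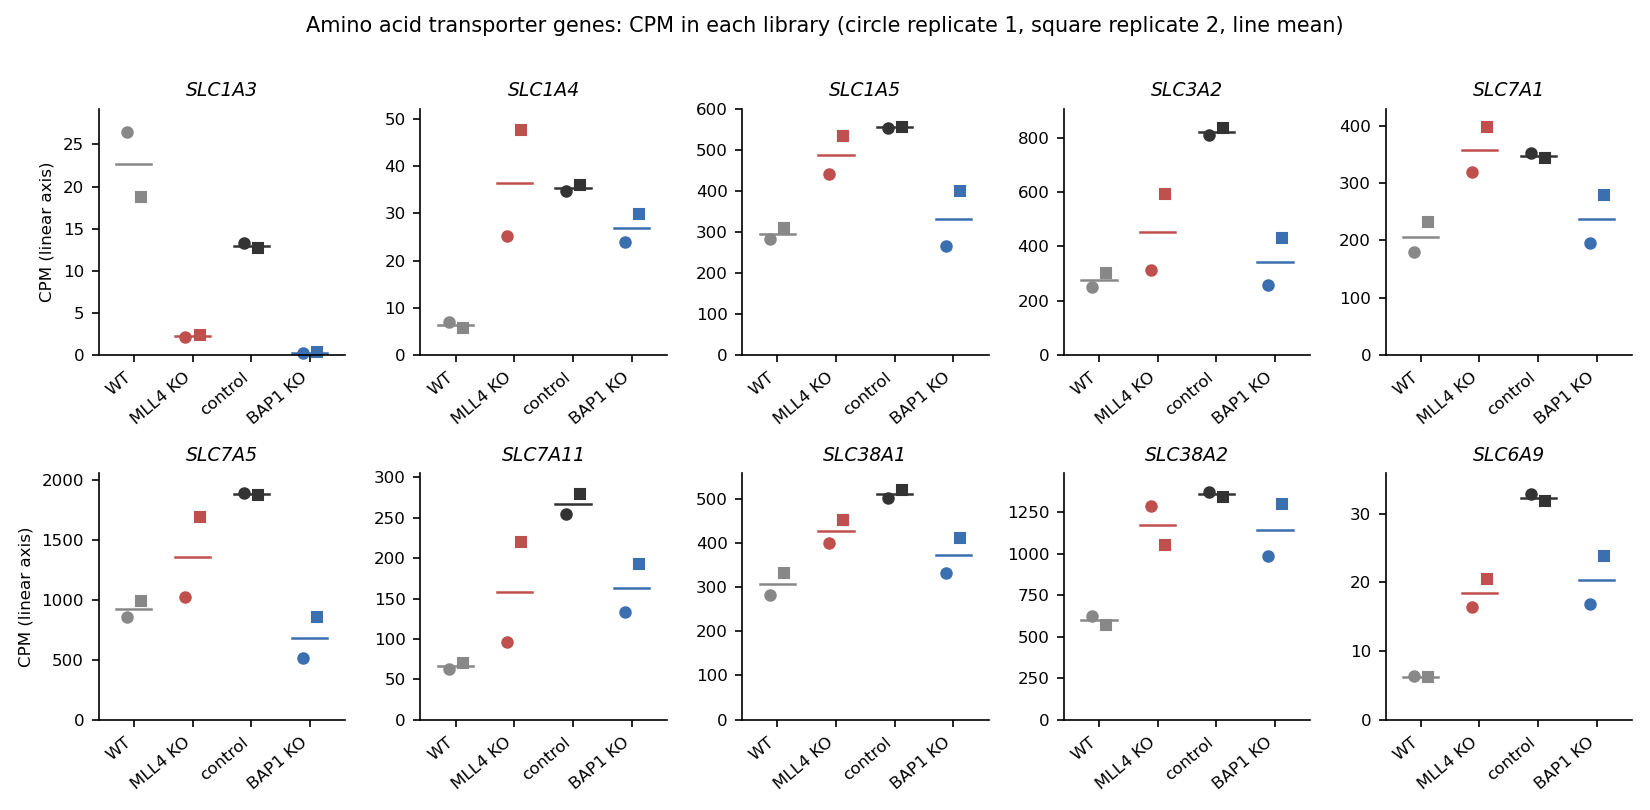
CPM (linear axis from 0) of the 10 transporter genes in the 8 libraries, by group; circles are replicate 1, squares replicate 2 and lines the mean of both. SLC1A3 is high in WT (26.5 and 18.8 CPM) and near 0 in BAP1 KO, while the other 9 genes are higher in both control libraries than in either WT or either BAP1 KO library.

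Of the other 9 transporter genes SLC1A5, SLC38A1 and SLC6A9 passed the test (edgeR's quasi-likelihood test, adjusted p under 0.05) in both knockouts, rising in MLL4 KO and falling in BAP1 KO. The share of all tested genes that passed in both knockouts in these directions was not counted, so this only names the genes. In MLL4 KO against WT 6 of the 9 rose, none fell and 3 did not pass, against 19.1% of all 16831 tested genes that passed in either direction and 9.13% that rose. With upper-quartile scaling the split over all genes was 1886 higher and 1211 lower, against 1536 and 1683 here. In BAP1 KO against control 5 of the 9 fell, none rose and 4 did not pass, against 22.4% of tested genes that passed and 12.1% that rose or 10.4% that fell. The median log2 fold change of the 9 genes was 0.80 (range 0.48 to 2.51) in MLL4 KO and -0.67 (range -1.46 to -0.25) in BAP1 KO, where the medians of all tested genes were 0.0039 and 0.0135. All 9 were higher without overlap in MLL4 KO than in WT, as were 30% of all tested genes, and all 9 were lower without overlap in BAP1 KO than in control, as were 35.2% of all tested genes.

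The difference between the knockout effects passed for all 9 genes. The MLL4 KO effect was the higher one by a log2 value of 0.94 to 2.90 (median 1.96), against 16.1% of tested genes that passed and 7.75% higher or 8.32% lower among them. Over all genes this difference was higher for 1304 and lower for 1400 genes, and for 1588 and 1080 with upper-quartile scaling. The unedited groups also differed: all 9 genes were higher in control than in WT, by 0.74 to 2.47 (median 1.18), where 39.6% of tested genes passed, 19.9% higher and 19.7% lower. Since the MLL4 KO libraries were set against the low WT level and the BAP1 KO libraries against the high control level, the knockout and the pair of groups it belongs to cannot be told apart in these differences. For 5 of the 9 genes BAP1 KO was above WT without overlap (36.4% of all tested genes), for 3 these groups overlapped, and for 1, SLC7A5, BAP1 KO was below WT without overlap (34.3% of all tested genes). All 9 were above WT in control without overlap, as were 37.9% of all tested genes.

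Within the knockout groups the 2 libraries of a pair differed in the same way for most genes. BAP1 KO replicate 1 was below replicate 2 for all 9 genes. MLL4 KO replicate 2 was above replicate 1 for 8 of the 9, the exception being SLC38A2. The count of genes that passed in MLL4 KO was 3 without any 1 of WT replicate 1, WT replicate 2, MLL4 KO replicate 2, control replicate 1 or control replicate 2. The count in BAP1 KO was 0 by edgeR's test without control replicate 1, control replicate 2 or BAP1 KO replicate 1, where 5, 5 and 3 of the 9 had an unadjusted p under 0.05. The count for the difference of effects was 4 without either control library and 5 without BAP1 KO replicate 1, and that for control against WT was 6 without either WT library. More of all genes passed in MLL4 KO without WT replicate 1 than with all libraries, and fewer without WT replicate 2. The counts of the 9 with a library left out therefore have no common background share. In models on only the 4 libraries of a comparison, 1 of the 9 (SLC1A4) passed in MLL4 KO and 8 passed in BAP1 KO. The sign of the fitted change of each of the 9 genes stayed as given under every setting tried.

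**Figure D2:**
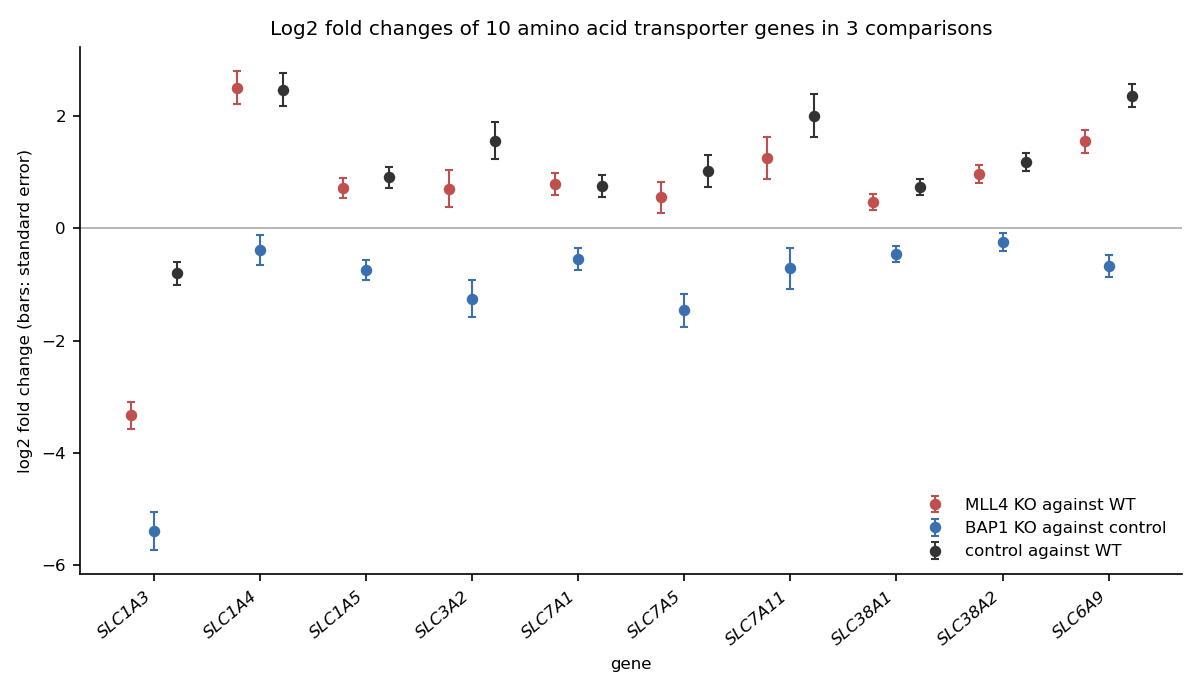
Log2 fold change (vertical axis; bars are the standard error from the model on 8 libraries) of each transporter gene in 3 comparisons: control against WT, MLL4 KO against WT, and BAP1 KO against its control. Apart from SLC1A3, every gene lies above 0 in MLL4 KO against WT and in control against WT and below 0 in BAP1 KO against control.

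SLC1A4, the alanine, serine and cysteine exchanger ASCT1, had the largest change of the 9 genes in MLL4 KO. Its levels were 6.98 and 5.78 CPM in WT, with 25.1 and 47.5 in MLL4 KO, 34.7 and 35.9 in control, and 24.0 and 29.8 in BAP1 KO. WT stood apart below the other 3 groups. SLC1A4 lies at chr2:64988479-65023865 on the plus strand (GRCh38.p14). SLC1A4 rose in MLL4 KO by 2.51 ± 0.30 (log2, SE, adjusted p = 0.00485) and passed under every alternative setting, with the highest adjusted p at 0.0470. In BAP1 KO against control its change was -0.39 ± 0.27 (adjusted p = 0.333). Control was above WT by 2.47 ± 0.30 (adjusted p = 0.000468).

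SLC1A5, the glutamine carrier ASCT2, was at 284 and 310 CPM in WT, with 444 and 536 in MLL4 KO, 556 and 558 in control, and 266 and 401 in BAP1 KO. WT and BAP1 KO overlapped, and both lay below MLL4 KO and control. SLC1A5 lies at chr19:46774883-46788594 on the minus strand. SLC1A5 rose in MLL4 KO by 0.72 ± 0.19 (log2, SE, adjusted p = 0.0294) and fell in BAP1 KO by 0.74 ± 0.19 (adjusted p = 0.0202). The first call was lost without any 1 of both WT libraries, both control libraries or MLL4 KO replicate 2 (adjusted p 0.0615 to 0.141). The second was lost without either control library or BAP1 KO replicate 1 (0.107 to 0.124). The difference of the 2 effects, 1.46 ± 0.26 (adjusted p = 0.00767), passed under every setting.

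SLC3A2, the CD98 heavy chain, was at 251 and 303 CPM in WT, with 314 and 593 in MLL4 KO, 808 and 833 in control, and 258 and 430 in BAP1 KO. Control stood above every other library, and the 2 MLL4 KO libraries lay far apart. SLC3A2 lies at chr11:62856109-62888860 on the plus strand. SLC3A2 fell in BAP1 KO by 1.25 ± 0.33 (log2, SE, adjusted p = 0.0325), with adjusted p from 0.0564 to 0.159 without either WT library, either control library or BAP1 KO replicate 1. In MLL4 KO its change was 0.71 ± 0.33 (adjusted p = 0.161), and it was 0.0305 without MLL4 KO replicate 1.

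SLC7A5, the leucine exchanger LAT1 that pairs with SLC3A2, was at 859 and 994 CPM in WT, with 1023 and 1698 in MLL4 KO, 1894 and 1880 in control, and 513 and 857 in BAP1 KO. The higher BAP1 KO library lay just below the lower WT library. SLC7A5 lies at chr16:87830023-87869507 on the minus strand. SLC7A5 fell in BAP1 KO by 1.46 ± 0.29 (log2, SE, adjusted p = 0.00938), the largest fall of the 9 genes. Without either control library or BAP1 KO replicate 1 the adjusted p was 0.0523 to 0.0566. In MLL4 KO its change was 0.55 ± 0.28 (adjusted p = 0.195), which passed under none of the alternatives.

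SLC7A11, the cystine and glutamate exchanger xCT, was at 62.4 and 70.0 CPM in WT, with 96.4 and 220 in MLL4 KO, 254 and 280 in control, and 134 and 193 in BAP1 KO. Its changes did not pass in either knockout. SLC7A11 lies at chr4:138164097-138242349. They were 1.26 ± 0.37 (log2, SE, adjusted p = 0.0562) in MLL4 KO and -0.71 ± 0.36 (adjusted p = 0.213) in BAP1 KO. Leaving out MLL4 KO replicate 1 gave 0.00477 for the first, and leaving out MLL4 KO replicate 1 or 2 gave 0.0201 or 0.0210 for the second. Control was above WT by 2.01 ± 0.38 (adjusted p = 0.00604, and 0.0513 without WT replicate 2). SLC7A11-AS1 overlaps this gene and had a mean of 188.5 reads per library.

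SLC38A1 and SLC38A2 encode the glutamine carriers SNAT1 and SNAT2. SLC38A2 was at 628 and 572 CPM in WT, with 1291 and 1056 in MLL4 KO, 1376 and 1345 in control, and 987 and 1303 in BAP1 KO. WT alone was low. SLC38A2 lies at chr12:46358188-46372773 on the minus strand. SLC38A2 rose in MLL4 KO by 0.97 ± 0.16 (log2, SE, adjusted p = 0.0102) and had a change of -0.25 ± 0.16 in BAP1 KO (adjusted p = 0.301). The rise missed the threshold only in the model on the 4 libraries of that comparison (0.0643).

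SLC38A1 was at 281 and 331 CPM in WT, with 400 and 452 in MLL4 KO, 503 and 520 in control, and 332 and 411 in BAP1 KO. The range over all libraries was 1.85-fold, the smallest of the 10 genes. SLC38A1 lies at chr12:46183063-46269043 on the minus strand. SLC38A1 rose in MLL4 KO by 0.48 ± 0.14 (log2, SE, adjusted p = 0.0472) and fell in BAP1 KO by 0.46 ± 0.14 (adjusted p = 0.0474). Both calls lay close to the threshold: the first was lost without any 1 of the 8 libraries (0.0515 to 0.180), the second without either control library or BAP1 KO replicate 1 (0.183 to 0.289). Whether SLC38A1 and SLC38A2 differed from each other in their response was not tested.

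SLC7A1, the arginine and lysine carrier CAT1, was at 179 and 233 CPM in WT, with 318 and 398 in MLL4 KO, 352 and 343 in control, and 196 and 279 in BAP1 KO. MLL4 KO and control overlapped, as did WT and BAP1 KO. SLC7A1 lies at chr13:29509414-29595688 on the minus strand. SLC7A1 rose in MLL4 KO by 0.80 ± 0.19 (log2, SE, adjusted p = 0.0261), which was lost without any 1 of both WT libraries, both control libraries or MLL4 KO replicate 2 (0.0531 to 0.126). Its change in BAP1 KO was -0.55 ± 0.19 (adjusted p = 0.0715, and 0.0385 to 0.0494 without WT replicate 1, WT replicate 2 or BAP1 KO replicate 2).

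SLC6A9, the glycine carrier GLYT1, was at 6.32 and 6.19 CPM in WT, with 16.3 and 20.4 in MLL4 KO, 32.9 and 31.8 in control, and 16.8 and 23.9 in BAP1 KO. The knockout groups overlapped between WT below and control above. SLC6A9 lies at chr1:43996483-44031462 on the minus strand. SLC6A9 rose in MLL4 KO by 1.55 ± 0.21 (log2, SE, adjusted p = 0.00581) and kept this call whichever library was left out. It fell in BAP1 KO by 0.67 ± 0.19 (adjusted p = 0.0326), which was lost without either control library or BAP1 KO replicate 1 (0.145 to 0.226). Control was above WT by 2.37 ± 0.21 (adjusted p = 6.76e-05). The gene CCDC24 overlaps the end of SLC6A9 on the other strand, with a mean of 520.25 reads per library.

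Levels of different genes were compared by the deposited RPKM, reads scaled to the length of the transcript and to the library. In WT the order from high to low was SLC7A5 (163 ± 12.7 RPKM, SD, n = 2), SLC3A2 (118 ± 12.7), SLC38A2 (100 ± 9.11), SLC1A5 (82.4 ± 3.03), SLC38A1 (29.8 ± 2.70), SLC7A1 (22.4 ± 3.55), SLC7A11 (5.49 ± 0.311), SLC1A3 (4.65 ± 1.23), SLC6A9 (1.56 ± 0.0627) and SLC1A4 (1.12 ± 0.177). Only SLC7A11 and SLC1A3 overlapped with a neighbour in this order. LAT1 and its heavy chain were thus the most abundant transcripts of the list in WT, and SLC1A3 was a minor one, at a mean RPKM ratio of 0.0567 to SLC1A5. SLC1A3 was the lowest of the 10 in the other 3 groups, at 0.456 ± 0.0322 RPKM in MLL4 KO, 2.53 ± 0.0629 RPKM in control and 0.0617 ± 0.0138 RPKM in BAP1 KO.

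In BAP1 KO the order at the top changed: SLC38A2 (189 ± 35.1 RPKM) came before SLC3A2 (144 ± 49.5 RPKM) and SLC7A5 (119 ± 41.2 RPKM), although these neighbours overlapped. In control SLC3A2 (333 ± 9.93 RPKM) was above SLC7A5 (316 ± 0.998 RPKM) without overlap. In MLL4 KO SLC7A5 (237 ± 80.5 RPKM), SLC38A2 (195 ± 29.9 RPKM) and SLC3A2 (191 ± 80.7 RPKM) each overlapped with the next gene in the order. After SLC3A2 that gene was SLC1A5 (135 ± 16.4 RPKM), which stood above SLC38A1 without overlap.

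**Figure D3:**
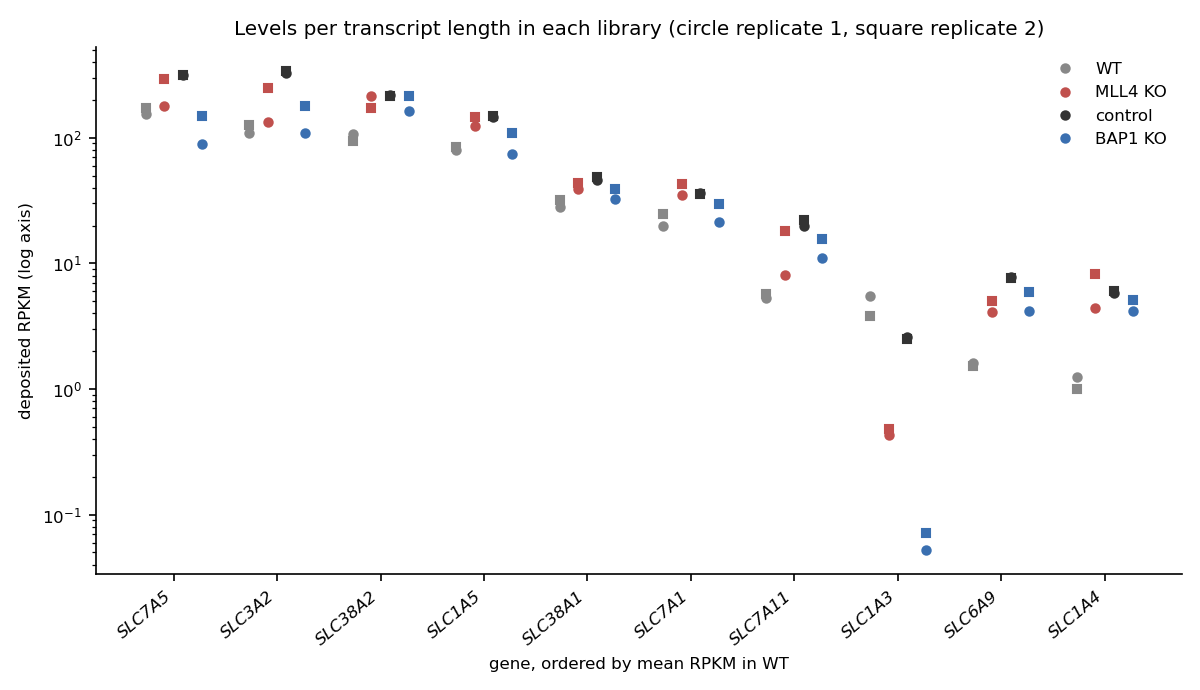
Deposited RPKM (log axis) of the 10 genes in the 8 libraries, with genes ordered by their WT mean, circles for replicate 1 and squares for replicate 2. SLC7A5, SLC3A2, SLC38A2 and SLC1A5 lie at 73.7 RPKM or more in all libraries, and SLC1A3 spans the widest range, from 5.52 RPKM in WT replicate 1 to 0.0519 RPKM in BAP1 KO replicate 1.

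Ratios within a library set related transporters side by side. SLC7A5 over SLC3A2, the light chain LAT1 over the heavy chain, was 1.41 and 1.36 in WT, with 1.35 and 1.19 in MLL4 KO, 0.969 and 0.933 in control, and 0.821 and 0.825 in BAP1 KO. From high to low the groups stood in the order WT, MLL4 KO, control, BAP1 KO with no overlap. SLC7A11 over SLC3A2, the light chain xCT over the same heavy chain, was 0.0485 and 0.0451 in WT, with 0.0599 and 0.0727 in MLL4 KO, 0.0614 and 0.0656 in control, and 0.101 and 0.0878 in BAP1 KO. So xCT transcript relative to the heavy chain was highest in BAP1 KO, where LAT1 transcript relative to the heavy chain was lowest.

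SLC1A5 over SLC1A4, ASCT2 over ASCT1, was 64.3 and 84.8 in WT, with 28.0 and 17.8 in MLL4 KO, 25.4 and 24.6 in control, and 17.5 and 21.3 in BAP1 KO. WT stood apart with the highest ratio. SLC38A2 over SLC38A1 was 3.82 and 2.96 in WT, with 5.53 and 4.00 in MLL4 KO, 4.69 and 4.44 in control, and 5.09 and 5.44 in BAP1 KO, and WT was the lowest without overlap. With 2 libraries against 2, an exact permutation test of a single ratio cannot give a p below 0.333, so these ratios are described only.

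**Figure D4:**
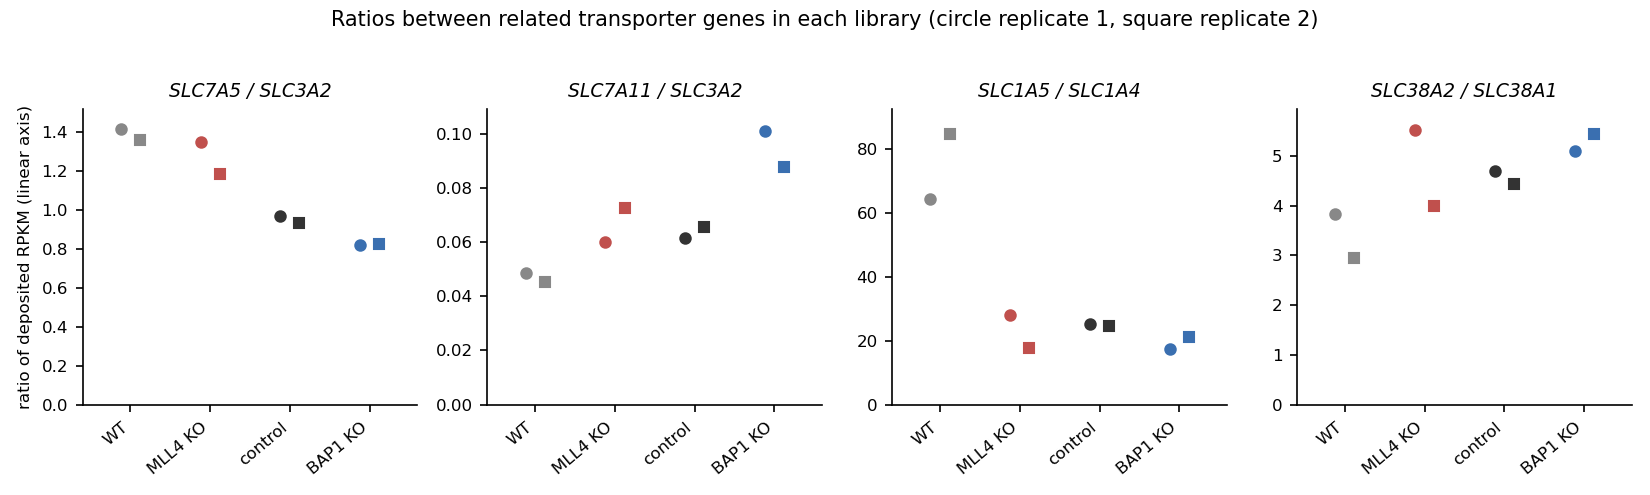
Ratio of deposited RPKM values between 4 pairs of transporter genes (linear axes from 0) in each library, by group, with circles for replicate 1 and squares for replicate 2. SLC7A5 over SLC3A2 steps down from WT (1.41 and 1.36) to BAP1 KO (0.821 and 0.825), and SLC1A5 over SLC1A4 is highest in WT.

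The regulators named for these transporters were followed in the same libraries. ATF4 was at 373 and 372 CPM in WT, with 605 and 723 in MLL4 KO, 698 and 716 in control, and 450 and 664 in BAP1 KO. Its transcript rose in MLL4 KO by 0.83 ± 0.18 (log2, SE, adjusted p = 0.0181; 0.0812 and 0.0897 without WT replicate 2 or MLL4 KO replicate 2). Its change in BAP1 KO was -0.34 ± 0.18 (adjusted p = 0.198; 0.0311 without BAP1 KO replicate 2). ATF4 was higher in control than in WT by 0.92 ± 0.18 (adjusted p = 0.00337).

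The next 3 genes, which are known to be switched on by ATF4, were also lowest in WT. DDIT3 (CHOP, a stress transcription factor) was at 10.5 and 18.6 CPM in WT, with 90.9 and 155 in MLL4 KO, 142 and 138 in control, and 72.0 and 128 in BAP1 KO. TRIB3, a pseudokinase, was at 39.0 and 45.3 CPM, 141 and 282 CPM, 287 and 292 CPM, and 123 and 202 CPM in these groups. CHAC1, which degrades glutathione, was at 4.46 and 5.22 CPM, 59.3 and 48.6 CPM, 97.2 and 97.5 CPM, and 28.7 and 76.7 CPM.

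DDIT3, TRIB3 and CHAC1 rose in MLL4 KO by 3.07 ± 0.41, 2.33 ± 0.36 and 3.47 ± 0.47 (log2, SE; adjusted p = 0.0101, 0.0119 and 0.0101). Without WT replicate 2 the adjusted p was 0.0855 for TRIB3 and 0.0748 for CHAC1, while DDIT3 passed without any 1 library. In BAP1 KO their changes of -0.48 ± 0.37, -0.84 ± 0.34 and -0.89 ± 0.39 did not pass (adjusted p = 0.402, 0.125 and 0.158). TRIB3 passed there without MLL4 KO replicate 1 or 2 (0.0255 and 0.0256) and CHAC1 without BAP1 KO replicate 2 (0.00206). The levels of these genes and of the transporters are given side by side, and a link between them was not tested.

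MYC, whose product is known to raise SLC1A5 and SLC7A5, was lower in both knockouts. It was at 398 and 403 CPM in WT, with 283 and 234 in MLL4 KO, 287 and 292 in control, and 93.6 and 131 in BAP1 KO. MYC fell in MLL4 KO by 0.63 ± 0.16 (log2, SE, adjusted p = 0.0308) and in BAP1 KO by 1.36 ± 0.17 (adjusted p = 0.000749). The first call was lost when either control library, WT replicate 2 or MLL4 KO replicate 2 was left out (0.0677 to 0.173 as adjusted p), and the second held whichever library was left out. A link between MYC and the transporters was not tested.

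NFE2L2 (NRF2, which drives SLC7A11 in the antioxidant response) was at 80.1 and 86.8 CPM in WT, with 99.6 and 102 in MLL4 KO, 153 and 153 in control, and 119 and 147 in BAP1 KO. It did not pass in either knockout (adjusted p = 0.158 and 0.293) and was higher in control than in WT by 0.87 ± 0.13 (log2, SE, adjusted p = 0.000873).

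**Figure D5:**
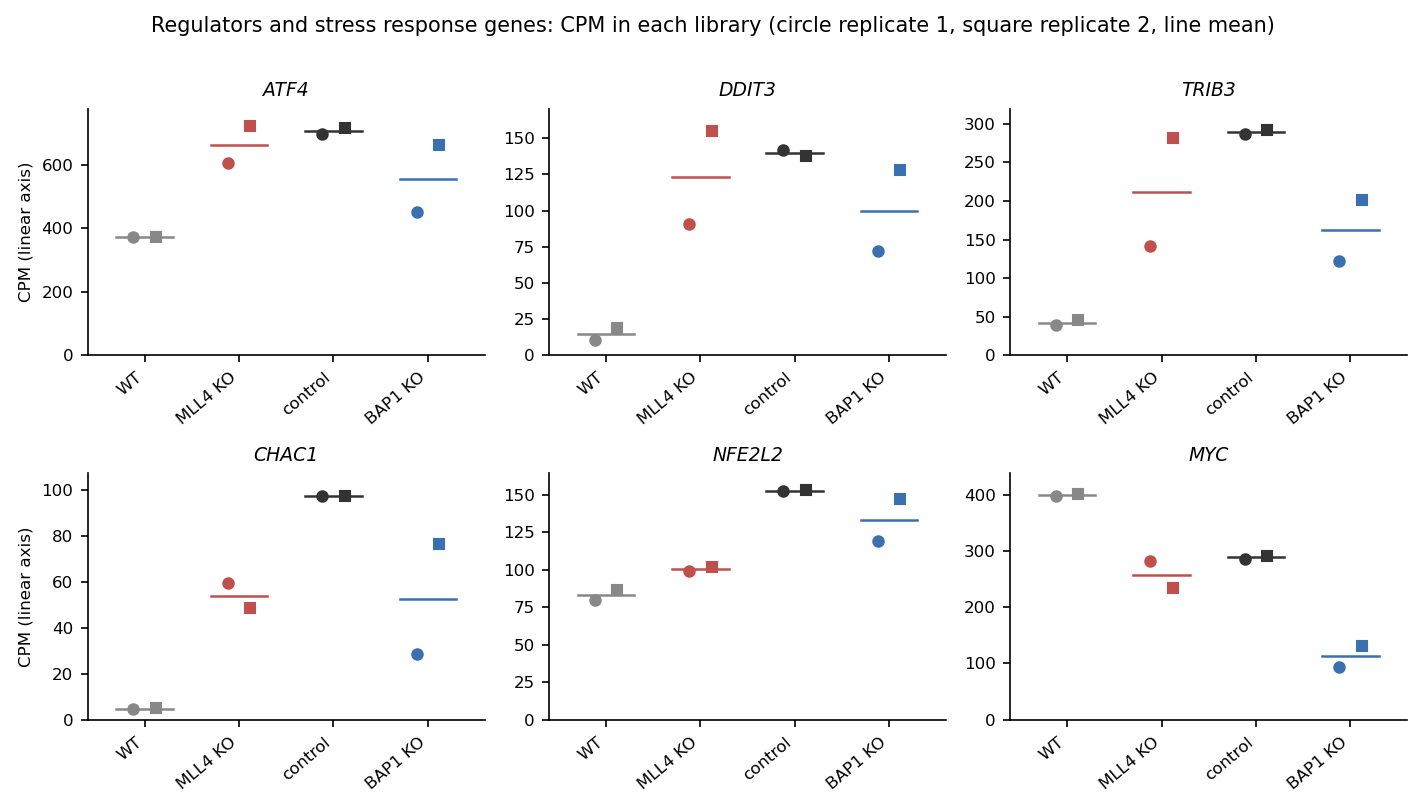
CPM (linear axis from 0) of 6 regulators and stress response genes in each library, by group; circles are replicate 1, squares replicate 2 and lines the mean. ATF4, DDIT3, TRIB3 and CHAC1 are lowest in WT, and MYC is highest in WT and lowest in BAP1 KO.

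Of 20 tested genes on the wider list of amino acid response and transporter regulators, 13 rose and 1 fell in MLL4 KO (median log2 fold change 0.97), where 9.13% of all tested genes rose and 10% fell. In BAP1 KO 2 of the 20 fell (median -0.51), where 10.4% of all tested genes fell, so that count was near the background. In control against WT 16 of the 20 were higher and 2 lower (median 1.22). Of all tested genes 19.9% were higher there and 19.7% lower. In MLL4 KO the count of risen genes was 1 when WT replicate 2 was left out, 5 for MLL4 KO replicate 2 and 8 for either control library. In BAP1 KO 7 fell without BAP1 KO replicate 2, and the 2 that fell with all libraries were MYC and NUPR1. NUPR1, a stress-induced chromatin protein, had 1 and 2 reads in WT, with 40 and 26 in MLL4 KO, 225 and 341 in control, and 10 and 48 in BAP1 KO. NUPR1 fell in BAP1 KO by 3.15 ± 0.41 (log2, SE, adjusted p = 0.000553). Control was above WT by 7.30 (adjusted p = 4.53e-05), and both BAP1 KO libraries also lay above both WT libraries. NUPR1 rose in MLL4 KO (adjusted p = 0.0291), a call lost without any 1 of the WT, MLL4 KO or control libraries. SESN2, a leucine sensor that restrains mTORC1, was higher in control than in WT by 3.03 ± 0.29, and JDP2, a bZIP repressor, by 2.51 ± 0.33. SESN2 rose in MLL4 KO by 2.18 ± 0.29 (adjusted p = 0.00720), and JDP2 by 2.29 ± 0.33 (adjusted p = 0.00865). Without WT replicate 2 these were at 0.0615 and 0.0559.

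Of 25 tested genes on the list of other amino acid transporters, 4 rose and 1 fell in MLL4 KO (median log2 fold change 0.08), a count near the 19.1% of all tested genes that passed there. In BAP1 KO 1 rose and 2 fell (median -0.11), where 22.4% of all tested genes passed. In control against WT 5 of these 25 were higher and 8 lower, where 39.6% of all tested genes passed. Without WT replicate 2 none of the 26 then tested passed by edgeR's test in MLL4 KO, and 6 had an unadjusted p under 0.05. The list median in MLL4 KO was 0.07 without MLL4 KO replicate 2 and 0.20 without WT replicate 1. The number of all genes that passed also changed with the library left out, so list counts under an omission have no common background share. In BAP1 KO the risen and fallen counts were 4 and 3 without either WT library, 2 and 4 without either MLL4 KO library, 0 and 2 without either control library, and 0 and 1 without BAP1 KO replicate 1.

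SLC43A1 (LAT3), a carrier of large neutral amino acids, was at 5.27 and 2.47 CPM in WT, with 10.7 and 19.9 in MLL4 KO, 19.8 and 20.9 in control, and 9.03 and 12.3 in BAP1 KO. It rose in MLL4 KO by 2.00 ± 0.39 (log2, SE, adjusted p = 0.0167; 0.0835 and 0.0632 without WT replicate 2 or MLL4 KO replicate 2). SLC7A2, another arginine carrier of the SLC7A1 type, was at 36.0 and 44.3 CPM in WT, with 38.7 and 23.5 in MLL4 KO, 15.2 and 17.9 in control, and 3.45 and 3.85 in BAP1 KO. Unlike SLC7A1 it was lower in control than in WT, by -1.28 ± 0.23 (adjusted p = 0.00253), and it fell in BAP1 KO by 2.19 ± 0.27 (adjusted p = 0.000778). SLC38A5 (SNAT5), a glutamine carrier, fell in BAP1 KO by 1.07 ± 0.19 (adjusted p = 0.00454; 0.0534 without BAP1 KO replicate 1).

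Of 29 tested genes of glutamate, glutamine and related amino acid metabolism, 8 fell and 1 rose in BAP1 KO (median log2 fold change -0.33), where 10.4% of all tested genes fell and 12.1% rose. In MLL4 KO 6 rose and 2 fell (median 0.35), where 9.13% of all tested genes rose and 10% fell. In control against WT 12 of the 29 were higher and 4 lower (median 0.28). Of all tested genes 19.9% were higher there and 19.7% lower. Without control replicate 1, control replicate 2 or BAP1 KO replicate 1 the count that fell in BAP1 KO was 4. The count that rose in MLL4 KO was 1 when WT replicate 2 was left out, 3 for MLL4 KO replicate 2 and 4 for either control library. Under an omission the number of all genes that passed changed too. Among the genes that fell in BAP1 KO were CTH, which makes cysteine, by 2.12 ± 0.29 (log2, SE, adjusted p = 0.00121), GCLC, the catalytic subunit of glutamate-cysteine ligase, by 0.95 ± 0.14 (adjusted p = 0.00204), and GSS, glutathione synthetase, by 0.90 ± 0.14 (adjusted p = 0.00207). These 3 calls held whichever library was left out. GCLM, the modifier subunit of the same ligase as GCLC, had control values of 40.9 and 41.8 CPM beside BAP1 KO values of 29.9 and 47.6 CPM, and its log2 fold change of -0.10 ± 0.34 did not pass (adjusted p = 0.868).

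ASS1, which makes arginine from citrulline with its partner lyase, was at 53.2 and 34.1 CPM in WT, with 93.2 and 88.0 in MLL4 KO, 157 and 156 in control, and 50.2 and 69.3 in BAP1 KO. It rose in MLL4 KO by 1.06 ± 0.21 (log2, SE, adjusted p = 0.0167; 0.0554 and 0.0668 without WT replicate 2 or MLL4 KO replicate 2) and fell in BAP1 KO by 1.39 ± 0.21 (adjusted p = 0.00250). PSAT1, of serine synthesis, was at 125 and 119 CPM in WT, with 258 and 433 in MLL4 KO, 517 and 516 in control, and 200 and 317 in BAP1 KO. PSAT1 rose in MLL4 KO by 1.50 ± 0.27 (adjusted p = 0.0142), and this was 0.102 without WT replicate 2. The means of both genes were lowest in WT and highest in control.

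Genes of amino acid sensing by mTORC1, the kinase complex that answers to leucine and arginine, formed the last list. Of 30 tested, 3 rose and 1 fell in MLL4 KO (median 0.0042), where 19.1% of all tested genes passed. In BAP1 KO 2 rose and none fell (median 0.05), where 22.4% of all tested genes passed. Both counts were below those shares. CASTOR1, an arginine sensor, rose in MLL4 KO by 2.71 ± 0.42 (log2, SE, adjusted p = 0.00855) and kept the call without any 1 library. MTOR itself fell in MLL4 KO by 0.50 ± 0.13 (adjusted p = 0.0275), which was lost when either control library, WT replicate 2 or MLL4 KO replicate 2 was left out (0.0693 to 0.152). The list median in MLL4 KO was 0.04 without WT replicate 1 and -0.02 without WT replicate 2. Counts on this list changed with the library left out, as did the number of all genes that passed, so they have no common background share. In BAP1 KO none passed by edgeR's test without control replicate 1 (4 had an unadjusted p under 0.05), and 1 rose without control replicate 2 or BAP1 KO replicate 1.

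The summed level of the epithelial markers was 3870 to 3982 CPM in WT, 5509 to 5611 CPM in MLL4 KO, 6329 to 6340 CPM in control and 3104 to 3736 CPM in BAP1 KO. Their sum was lowest in BAP1 KO, while 8 of the 9 transporters had their lowest mean in WT. Most of the reads behind this sum came from KRT8, KRT18 and KRT19, each at 506 CPM or more in every library. EPCAM, CDH1, CLDN3, CLDN4 and CLDN7 each reached at most 419 CPM, so the sum mainly gives the keratin level. Of the 8 epithelial markers 2 rose and 1 fell in MLL4 KO, where 9.13% of all tested genes rose and 10% fell. In BAP1 KO 6 fell, where 10.4% of all tested genes fell. In control against WT 6 were higher, where 19.9% of all tested genes were higher. The neural or glial markers GFAP, AQP4, RBFOX3 and SNAP25 summed to 1.66 to 3.76 CPM over all libraries. The immune and endothelial markers summed to at most 1.54 CPM in any library, and the fibroblast list to 25.7 to 55.2 CPM, nearly all from COL1A1. The part of the epithelial level in the transporter results was not tested.

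The genes whose pattern over the 8 libraries was most like SLC1A3, by Pearson correlation of log2(CPM + 1), were TRABD (r = 0.983), DUS1L (0.981), CTSC (0.978), LYN (0.978) and RNF141 (0.973). These are descriptions over libraries that share their groups. None of them covered the range of SLC1A3: RNF141, a RING finger gene, went from 147 and 158 CPM in WT to 33.5 and 39.9 CPM in BAP1 KO. The protease gene CTSC went from 30.2 and 32.3 CPM in WT to 11.5 and 11.2 CPM in BAP1 KO. Among the other 9 transporters the correlation with SLC1A3 ran from -0.54 for SLC1A4 to 0.45 for SLC7A5.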

How the data were processed

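Poly(A)-selected RNA of HCT116 cells (1 µg of total RNA per library) was sequenced in 8 libraries, per the labels' protocols, and grouped by sample title. Each table holds a read count and an RPKM value per RefSeq transcript, per the file headers. The deposited counts are whole and not normalized. The authors scaled RPKM to the length of the transcript and the size of the library. Named in the submitters' processing notes, with no role given, are hg38, STAR, Bowtie2, bcl2fastq and SICER 1.1. For the counting tool and the strand setting, the sources used here name none.

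Transcripts were matched to symbols through RefSeq (GRCh38.p14); 605 of 88819 rows had none (0.230 to 0.252% of counts) and were left out. Counts were tested with edgeR 4.0.16 (R 4.3.3; quasi-likelihood test with robust dispersion, TMM scaling, filterByExpr by group), 1 model on all 8 libraries. Of 28105 genes 16831 passed the filter on low counts, the 10 transporter genes among them. P-values are two-sided and adjusted by Benjamini-Hochberg over all tested genes, with a threshold of 0.05. CPM are counts per 1e+06 reads after TMM scaling. RPKM entered no test. The procedure was tested on simulated data.

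The transporter genes and gene lists were chosen with earlier results of these data known. Named from each list were up to 4 genes per direction and comparison with the smallest p, from which the text takes examples, as well as 6 regulators (another is not reported here), the 5 genes most like SLC1A3, and KMT2D and BAP1. Alternatives were other scalings (RLE, upper quartile), DESeq2 1.42.0, limma 3.58.1 (voom), other filters, other transcript rows, the replicate number as a block, only the 4 libraries of a comparison, and each library left out. The crossed numbers and the older edgeR dispersion were added after the data were seen.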

Additional observations from a re-analysis of the deposited data

Results flagged for a closer look

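For each of the 9 tested transporter genes the effect of MLL4 KO (against WT) differed from that of BAP1 KO (against control) by the test of the difference itself (edgeR's quasi-likelihood test, adjusted over all genes). The MLL4 KO effect was the higher one throughout. The difference was largest for SLC1A4, at 2.90 ± 0.40 (log2, SE, adjusted p = 0.00333), and for SLC6A9, at 2.22 ± 0.28 (adjusted p = 0.00197). It was 1.46 ± 0.26 for SLC1A5 (adjusted p = 0.00767) and 1.22 ± 0.23 for SLC38A2 (adjusted p = 0.00934). These 4 genes passed whichever library was left out.

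The remaining 5 genes did not pass under every omission of a library. The difference was 2.02 ± 0.40 for SLC7A5 (log2, SE, adjusted p = 0.0152), which was 0.0584 to 0.0598 without control replicate 1 or control replicate 2. It was 1.35 ± 0.28 for SLC7A1 (adjusted p = 0.0132), which was 0.0543 to 0.0568 without control replicate 1, control replicate 2 or BAP1 KO replicate 1. For SLC38A1 it was 0.94 ± 0.20 (adjusted p = 0.0165), which was 0.0680 to 0.0862 without control replicate 1, control replicate 2 or BAP1 KO replicate 1. For SLC3A2 it was 1.96 ± 0.46 (adjusted p = 0.0299), which was 0.0781 to 0.101 without WT replicate 1, WT replicate 2, control replicate 1, control replicate 2 or BAP1 KO replicate 1. For SLC7A11 it was 1.97 ± 0.52 (adjusted p = 0.0460), which was 0.0589 to 0.145 without WT replicate 1, WT replicate 2, control replicate 1, control replicate 2, BAP1 KO replicate 1 or BAP1 KO replicate 2. For all 9 genes the unedited groups differed too, with control above WT by 0.74 to 2.47 (log2, median 1.18). By its definition each difference is the sum of MLL4 KO against BAP1 KO and control against WT. The gap between the unedited groups is therefore contained in it. The summed epithelial markers were at 3104 to 3736 CPM in BAP1 KO, 3870 to 3982 in WT, 5509 to 5611 in MLL4 KO and 6329 to 6340 in control. The part of the epithelial level in these differences was not tested.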

How the results depend on the processing

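No setting reversed the direction of a transporter gene. Of 711 tested gene values under an alternative 606 kept their side of the threshold, 89 no longer passed and 16 newly passed. With only the 4 libraries of a comparison, 60 of all genes and 1 of the 9 transporters passed in MLL4 KO against WT, and 6660 and 8 in BAP1 KO against control; the first model rests on the more spread replicates and the second on the closer ones. Leaving out 1 library at a time gave 530 to 5290 genes and 3 to 7 transporters in MLL4 KO, 1075 to 5014 and 0 to 6 in BAP1 KO, 681 to 4426 and 4 to 9 for the difference of effects, and 3253 to 7269 and 6 to 9 for control against WT. A group then holds 1 library, which is assumed to vary like the others.

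The replicate numbers did not pair the libraries: deviations of same-numbered libraries correlated at -0.134 between WT and MLL4 KO and at 0.0029 between control and BAP1 KO. With the replicate number as a block 792 genes passed in MLL4 KO, 2481 in BAP1 KO with 3 of the 9 transporters, 1356 for the difference of effects and 3072 in control against WT. With the WT and MLL4 KO numbers crossed, 3975 genes passed in MLL4 KO, 4203 in BAP1 KO, and 4161 with 5 transporters in control against WT. The causes of these shifts were not tested. Depth limits SLC1A3 in BAP1 KO, where it rests on 8 and 10 reads.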
